A study of Homo sapiens with 12 samples.

Results

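The ID proteins and the TGF-beta signaling chain were followed through 10 transcripts, ID1, ID2, ID3, TGFB1, TGFBR1, TGFBR2, ENG, SMAD3, SMAD6 and SMAD7. They were taken by gene symbol from a deposited table of 19447 symbols, and all 10 were present. Poly(A)-enriched RNA had been sequenced in 12 libraries, 3 in each of 4 groups. K562 is a cell line from human chronic myeloid leukemia that carries the BCR-ABL1 fusion, and imatinib (IM) inhibits the ABL kinase. The K562 group was untreated, and the K562+L group received lycorine, a plant alkaloid, at 6 µM. K562/IM is a resistant line that the study derived from K562 by stepwise exposure to imatinib and kept in medium with imatinib at 5 µM, and its libraries carry the label control. The libraries labelled K562/IM+L, called the labelled libraries here, stand for K562/IM cells given lycorine at 6 µM. The resistant line is 1 derived culture, so its differences from K562 cannot be told apart from drift in culture. The exposure time before sequencing and whether imatinib was in the medium at harvest are not given in the sources used here.

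Members of the TGF-beta family bind pairs of type II and type I receptor kinases at the cell surface. The type I receptor phosphorylates receptor SMAD proteins, which enter the nucleus with SMAD4 and act on target promoters. ID1, ID2 and ID3 are targets, above all of the bone morphogenetic protein (BMP) branch, and encode helix-loop-helix proteins without a DNA-binding region, which hold E-proteins off DNA and are known for keeping blood progenitors from differentiating. TGFB1 encodes the ligand TGF-beta 1, TGFBR1 its type I receptor, TGFBR2 its type II receptor and ENG the co-receptor endoglin. SMAD3 carries the TGF-beta signal, whereas SMAD6 and SMAD7 are inhibitory SMAD proteins that the pathway itself induces.

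Total counts ran from 75093844 to 107344598 per library, and levels are given as CPM, counts scaled to the depth of the library, after TMM scaling. The 8 K562 markers examined, which include GATA1 and the fetal globin genes HBG1 and HBG2, were detected in every group. ABCB1, a drug efflux pump, ranged from 1.68 to 1.86 CPM in K562, from 3.83 to 5.14 in K562+L, from 21.9 to 25.8 in K562/IM and from 0.49 to 1.06 in the K562/IM+L-labelled libraries. The last group thus lay below parental K562 for a transcript that separated K562/IM from K562. By Western blot, the study reported less P-gp, the protein of ABCB1, in K562/IM given lycorine than in K562/IM. A fall of ABCB1 against K562/IM therefore has the direction of the study's protein result. The study names that group inconsistently between its labels and its plots. Every direction below that involves these libraries rests on their label.

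Promoter sequences were taken from RefSeq (GRCh38.p14), which held all 10 genes, to show which SMAD-related letters lie close to the start sites. The ID1 window is chr20:31605039-31605282 (plus strand) and the SMAD6 window is chr15:66701986-66702235 (plus strand). These are given because ID1 was called with lycorine in K562 and in K562/IM against K562, and SMAD6 was the only 1 of the 10 whose windows held the 8-letter palindrome GTCTAGAC. Capitals mark a CCAAT box, read as ATTGG on this strand, in ID1 and the palindrome in SMAD6.
ID1: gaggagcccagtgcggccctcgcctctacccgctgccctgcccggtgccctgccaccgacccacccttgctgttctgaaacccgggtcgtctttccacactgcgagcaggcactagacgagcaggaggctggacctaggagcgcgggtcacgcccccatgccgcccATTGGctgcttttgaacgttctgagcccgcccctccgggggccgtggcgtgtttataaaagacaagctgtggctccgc
SMAD6: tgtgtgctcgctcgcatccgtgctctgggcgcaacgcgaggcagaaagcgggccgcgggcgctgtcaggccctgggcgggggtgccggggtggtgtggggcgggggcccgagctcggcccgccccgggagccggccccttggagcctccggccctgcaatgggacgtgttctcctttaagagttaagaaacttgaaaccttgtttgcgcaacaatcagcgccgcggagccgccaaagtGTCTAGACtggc
Letters were searched on both strands in the 250 bases before each start, and none of the motifs below contains another. GTCTAGAC began 12 bases before the RefSeq start of SMAD6 and occurs in 0.182% of 35116 RefSeq promoter windows of that length. The last 8 bases of the SMAD6 window lie in an annotated exon, which the palindrome overlaps in part. The ID1 window held neither that palindrome, nor a SMAD box, nor the GC-rich site of SMAD1 and SMAD5, but it held 1 CCAAT box, 84 bases before the start. The SMAD box is the letters CAGAC, present in 38% of all windows. The GC-rich site is the letters GGCGCC, present in 16.4%. The ID2 window held 3 CCAAT boxes, which 32% of windows have, and 1 E-box, the letters CANNTG, which 61.8% have. The ID3 window held 1 SMAD box and no CCAAT box. By annotation, 229 of the 250 bases of the ID2 window and all 250 of the ID3 window lie in exons, so neither is shown. These matches describe letters near the start and say nothing of what is bound there.

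Per length, TGFB1 was the most abundant of the 10 transcripts and TGFBR2 the least in every group. In K562 the mean level per kilobase of annotated exon was 59 CPM per kb for TGFB1, 12.2 for TGFBR1, 10.1 for ID1 and 7.14 for SMAD3. ID3 followed with 3.54 CPM per kb, ID2 with 1.32, SMAD6 with 1.1, SMAD7 with 0.549, ENG with 0.505 and TGFBR2 with 0.066. In K562/IM, ID1 stood second with 27.7 CPM per kb, ahead of TGFBR1 with 18.1, ID3 with 13.4 and ID2 with 12. TGFB1 stayed first at 57.1 CPM per kb, so the ID transcripts stood higher among the 10 in the resistant line than in K562.

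**Figure D1:**
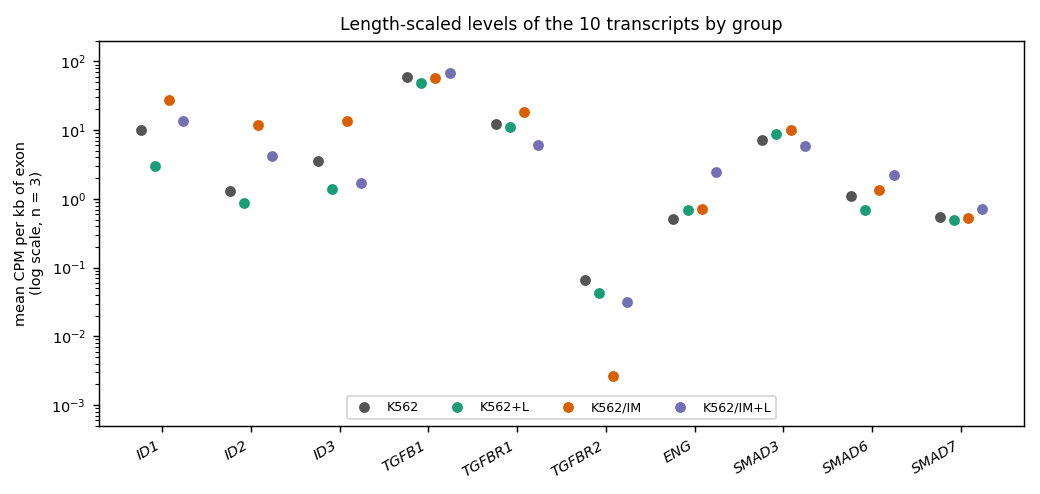
Mean level of each transcript in CPM per kilobase of exon (log axis), 1 point per group of 3 libraries. TGFB1 is highest and TGFBR2 lowest in every group, and the ID transcripts have their highest points in K562/IM; the K562/IM point of TGFBR2 rests on 4 counts in 1 library.

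The ID transcripts were highest in K562/IM and had lower means in both groups labelled with lycorine than in the controls of the same line. ID1 and ID3 fell with lycorine in K562, all 3 rose in K562/IM over K562, and ID2 and ID3 fell in the K562/IM+L-labelled libraries against K562/IM. A gene was called where edgeR's quasi-likelihood test gave a Benjamini-Hochberg adjusted p below 0.05 over all genes tested and the log2 fold change exceeded 1 in size.

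ID1 (chr20:31605283-31606515, GRCh38, plus strand) measured 9.3, 13.3 and 14.9 CPM in the K562 libraries and 4.13, 3.62 and 3.46 in K562+L. It measured 32.2, 31.7 and 38.4 CPM in K562/IM and 17.9, 19.8 and 13 in the K562/IM+L-labelled libraries. K562/IM stood above all other libraries and K562+L below all others, and the remaining groups overlapped. In K562+L against K562, ID1 fell by 1.74 on the log2 scale (SE 0.19, adjusted p = 7.3e-04). It rose by 1.45 (SE 0.18, adjusted p = 3.2e-04) in K562/IM against K562. Against K562/IM, the log2 difference of the labelled libraries was -0.99 (SE 0.16, adjusted p = 0.00115), just short of the fold threshold, which it passed in 6 of 14 alternatives. Those 6 include leaving out K562/IM replicate 1 (-1.03) or 2 (-1.05) and labelled replicate 1 (-1.04) or 2 (-1.12). Against K562 the difference was 0.41 (SE 0.23, adjusted p = 0.158).

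ID2 (chr2:8678845-8684453, plus strand) was low in K562, with 2.77, 3.22 and 2.49 CPM, and measured 1.34, 2.02 and 2.24 in K562+L. It reached 25.7, 26.8 and 24.5 CPM in K562/IM and 9.63, 9.06 and 8.38 in the K562/IM+L-labelled libraries. No neighbouring groups overlapped in the order K562/IM, labelled K562/IM+L, K562, K562+L. In K562+L the log2 difference was -0.60 (SE 0.24, adjusted p = 0.0799), which did not pass. ID2 had the largest rise of the 10 in K562/IM, 3.18 (SE 0.12, adjusted p = 1.4e-06). It fell by 1.48 (SE 0.091, adjusted p = 8.8e-06) in the labelled libraries against K562/IM, and remained 1.65 (SE 0.15, adjusted p = 1.3e-04) above K562. ID2 shares 10 exon bases with the antisense gene ID2-AS1, and whether the counting used strand is not stated.

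ID3 (chr1:23557918-23559794, minus strand) measured 3.5, 4.33 and 5.47 CPM in K562 and 2.05, 1.97 and 1.24 in K562+L. It measured 15.9, 16.8 and 17.7 CPM in K562/IM and 1.68, 2.53 and 2.28 in the K562/IM+L-labelled libraries. Both groups labelled with lycorine overlapped at the bottom, below every K562 library, and K562/IM stood apart at the top. ID3 fell by 1.34 (SE 0.26, adjusted p = 0.00625) with lycorine in K562 and rose by 1.92 (SE 0.17, adjusted p = 6.0e-05) in K562/IM. The labelled libraries were lower than K562/IM (log2 -2.94, SE 0.17, adjusted p = 6.6e-06), the largest fall among the 10. They were also called lower than K562 (log2 -1.06, SE 0.24, adjusted p = 0.00824), but not without K562 replicate 3 (-0.88), without labelled replicate 1 (-0.92) or under upper-quartile scaling (-0.91).

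**Figure D2:**
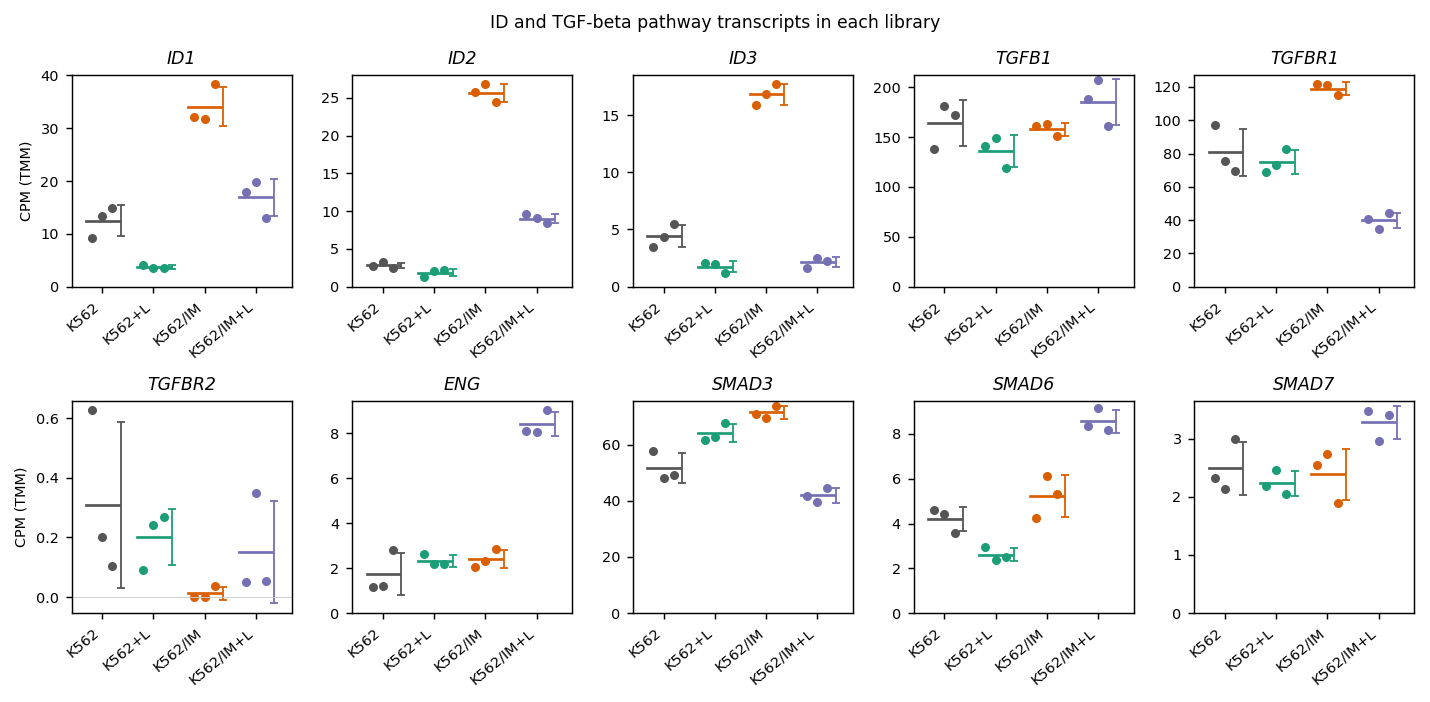
Level of each transcript in CPM (linear axes from 0, scaled per panel); points are libraries, lines are group means and brackets are 1 SD (n = 3). The ID panels peak in K562/IM (ID2 from 24.5 to 26.8), ENG and SMAD6 peak in the K562/IM+L-labelled libraries, and TGFB1 overlaps between most groups.

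TGFB1, the ligand (chr19:41301587-41353911, minus strand), measured 138, 181 and 172 CPM in K562 and 141, 149 and 119 in K562+L. It measured 161, 163 and 151 CPM in K562/IM and 188, 207 and 161 in the K562/IM+L-labelled libraries. Neighbouring groups overlapped, except that every K562/IM library exceeded every K562+L library. None of the 4 comparisons was called, with log2 differences from -0.26 (SE 0.13, adjusted p = 0.15) with lycorine in K562 to 0.25 (SE 0.097, adjusted p = 0.0518) in the labelled libraries against K562/IM. The ligand gene thus lacked the steps between groups that the ID transcripts showed.

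TGFBR1, the type I receptor (chr9:99104038-99154192, plus strand), measured 96.9, 75.7 and 69.8 CPM in K562 and 69, 73.2 and 82.6 in K562+L. It measured 122, 121 and 115 CPM in K562/IM and 40.7, 34.8 and 44 in the K562/IM+L-labelled libraries. The labelled libraries lay below, and K562/IM above, every other library. The K562+L difference was -0.11 (adjusted p = 0.562), and the K562/IM difference of 0.56 (SE 0.12, adjusted p = 0.00537) passed on p but not on fold. TGFBR1 fell by 1.56 (SE 0.1, adjusted p = 1.0e-05) in the labelled libraries against K562/IM. It was lower than K562 by a called log2 of -1.04 (SE 0.15, adjusted p = 9.0e-04), which missed the fold threshold without K562 replicate 1 (-0.89), without labelled replicate 2 (-0.96) or under upper-quartile scaling (-0.89).

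TGFBR2, the type II receptor (chr3:30606502-30694142, plus strand), was at the edge of detection, with 51, 17 and 8 raw counts in K562 and 8, 21 and 28 in K562+L. It had 0, 0 and 4 counts in K562/IM and 4, 25 and 5 in the K562/IM+L-labelled libraries. Low counts in this table pile up near multiples of 4, so a floor of 12 counts per library was used for a group at or near 0. The K562 mean was 0.31 CPM, and 0.153 without K562 replicate 1, beside a K562/IM floor of 0.144 CPM, so no fold is given. TGFBR2 was left out of the tests against K562/IM by the filter on low counts, and neither tested comparison with K562 was called (log2 -0.62, SE 0.75, adjusted p = 0.543 for K562+L, and -1.08, adjusted p = 0.388 for the labelled libraries). Without K562 replicate 1 the K562+L difference was 0.38 in place of -0.62, and the depth does not show a direction.

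ENG, the co-receptor (chr9:127815012-127854756, minus strand), measured 1.17, 1.19 and 2.8 CPM in K562 and 2.63, 2.18 and 2.18 in K562+L. It measured 2.05, 2.33 and 2.85 CPM in K562/IM and 8.12, 8.07 and 9.03 in the K562/IM+L-labelled libraries. The labelled libraries stood alone at the top, and the other 3 groups overlapped. ENG rose by 1.82 (SE 0.16, adjusted p = 5.2e-05) against K562/IM and by 2.27 (SE 0.36, adjusted p = 0.00146) against K562, the largest rise among the 10 in both comparisons. In K562/IM against K562 the log2 difference was 0.49 (adjusted p = 0.285), and without K562 replicate 3, the library with 2.8 CPM, it was 1.02 and passed (adjusted p = 0.00912). An antisense gene shares 122 exon bases with ENG. Endoglin is also a marker of endothelium, whose summed marker level ranged from 1.51 to 3.04 CPM over the 12 libraries, with CDH5 at 0.0477 CPM or less.

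SMAD3 (chr15:67063763-67195195, plus strand) measured 57.8, 48 and 49.2 CPM in K562 and 61.7, 62.6 and 67.7 in K562+L. It measured 71.1, 69.6 and 73.9 CPM in K562/IM and 41.6, 39.5 and 44.6 in the K562/IM+L-labelled libraries. No groups overlapped, although no SMAD3 difference passed the fold threshold. The log2 difference was 0.31 (SE 0.1, adjusted p = 0.043) with lycorine in K562 and 0.47 (SE 0.09, adjusted p = 0.00299) in K562/IM. In the labelled libraries it was -0.75 (SE 0.075, adjusted p = 9.5e-05) against K562/IM and -0.33 (adjusted p = 0.0298) against K562.

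SMAD6 (chr15:66702228-66782848, plus strand) measured 4.59, 4.43 and 3.59 CPM in K562 and 2.96, 2.39 and 2.49 in K562+L. It measured 4.23, 6.13 and 5.32 CPM in K562/IM and 8.36, 9.14 and 8.17 in the K562/IM+L-labelled libraries. K562+L lay lowest and the labelled libraries highest, each apart from the rest, while K562 and K562/IM overlapped. The log2 difference was -0.69 (SE 0.18, adjusted p = 0.0181) with lycorine in K562 and 0.73 (SE 0.16, adjusted p = 0.00427) in the labelled libraries against K562/IM, neither past the fold threshold. Against K562 the labelled libraries were called higher by 1.00 (SE 0.15, adjusted p = 0.00114), at the threshold itself. The call was lost without the filter on low counts (1.00, rounded), without K562 replicate 3 (0.90) or without labelled replicate 2 (0.94).

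SMAD7, the other inhibitor (chr18:48919853-48952052, minus strand), measured 2.33, 2.13 and 3 CPM in K562 and 2.19, 2.46 and 2.04 in K562+L. It measured 2.54, 2.73 and 1.89 CPM in K562/IM and 3.48, 2.95 and 3.41 in the K562/IM+L-labelled libraries. Neighbouring groups overlapped throughout. The log2 differences ran from -0.16 (adjusted p = 0.563) with lycorine in K562 to 0.49 (adjusted p = 0.0563) in the labelled libraries against K562/IM, and none was called.

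With lycorine in K562, 0 of the 10 transcripts were called higher and 2 lower, and 4 passed on adjusted p alone. Among the 12927 genes tested there, 2.38% were called higher and 4.01% lower, and 4821 passed on adjusted p alone. In K562/IM against K562, 3 of 9 tested were called higher and 0 lower, beside 13.9% and 5.29% of all genes tested, and without K562 replicate 3 the calls rose to 5, with ENG joining as higher and TGFBR2, at a few counts, as lower. In the labelled libraries, 1 of 9 was called higher and 3 lower against K562/IM, where 14.7% and 13.8% of all genes tested were called. Against K562, 3 of 10 were called higher and 2 lower, beside 14.9% and 8.91%. Without K562 replicate 3 or without labelled replicate 2, only 3 were called. The comparisons share libraries: K562 is the control of 3 of them, and K562/IM is compared in 2.

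**Figure D3:**
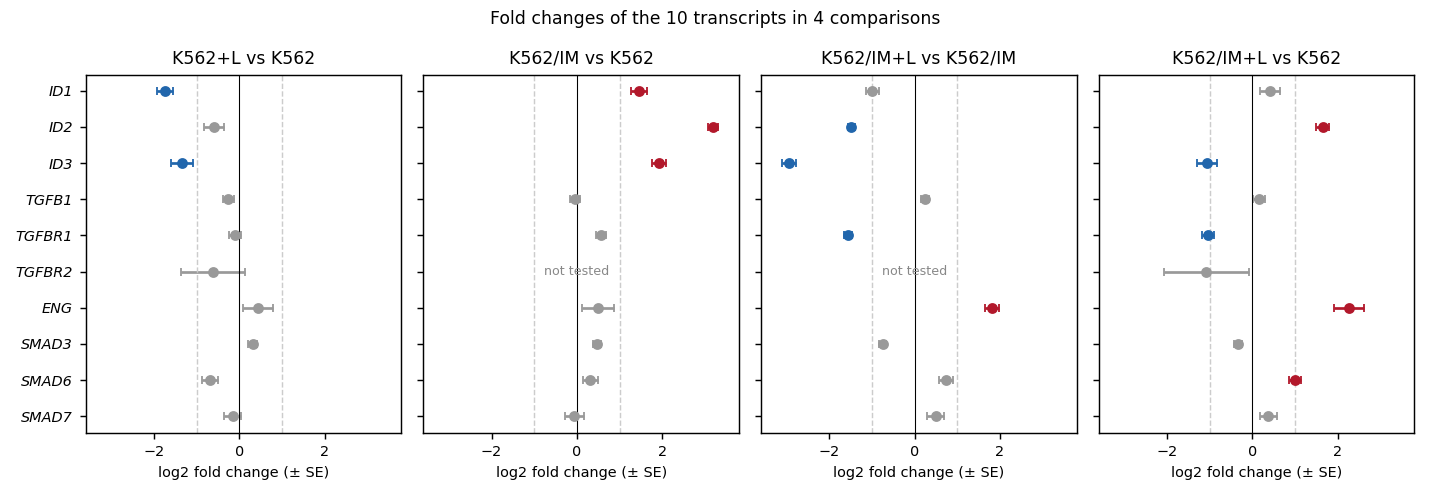
Log2 fold change of each transcript with its standard error in 4 comparisons. Red and blue points were called higher and lower, grey points were not called, and dashed lines mark the fold threshold of 1; the ID transcripts lie to the right in K562/IM against K562 (from 1.45 to 3.18) and to the left in both lycorine contrasts, those of the labelled libraries resting on their label.

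Whether lycorine acted alike in both lines was tested as an interaction over the 12 libraries, as the log2 lycorine effect in K562/IM by label minus that in K562. At an adjusted p under 0.05, 4 of the 10 differed upward and 4 downward, where 29.9% and 31.7% of 13995 genes did. ID3 (-1.62, SE 0.32, adjusted p = 8.3e-04) and ID2 (-0.91, adjusted p = 0.00521) differed downward, with the larger fall in the resistant line as labelled. ID1 differed the other way (0.73, adjusted p = 0.0311), since its fall was larger in K562, but this was lost when any of 8 single libraries was left out (0.56 to 0.70), namely replicates 2 and 3 of K562 and of K562+L, and replicates 1 and 2 of K562/IM and of the labelled libraries. TGFBR1 (-1.48, adjusted p = 2.2e-05) and SMAD3 (-1.08, adjusted p = 1.1e-05) also differed downward. SMAD3 was higher with lycorine in K562 and lower in the labelled libraries, in all 3 libraries of each group against every control.

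SMAD6 (1.40, adjusted p = 2.8e-04), ENG (1.36, adjusted p = 0.0136) and TGFB1 (0.49, adjusted p = 0.0284) differed upward. The TGFB1 result was lost without K562 replicate 2 (0.41) or 3 (0.45), K562+L replicate 3 (0.40), K562/IM replicate 3 (0.47), or labelled replicate 1 (0.48) or 2 (0.37). SMAD7 (0.62, adjusted p = 0.0712) did not pass, but did under upper-quartile scaling (adjusted p = 0.0355), with at least 10 counts in every library (0.0482) and with counts divided by 4 (0.0496). TGFBR2 (3.96, adjusted p = 0.0552) did not pass either, on counts near the floor, but did with DESeq2 (adjusted p = 0.0273), under upper-quartile scaling (0.0492) and without K562 replicate 3, K562/IM replicate 3 or labelled replicate 1 or 3, and its value reached 7.32 without K562/IM replicate 3. Upper-quartile scaling moved the median of all genes to 0.11 in this contrast and to 0.17 in the labelled libraries against K562. Against K562 it gave 2355 genes called higher and 873 lower, in place of 1977 and 1185.

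The wider pathway was read from lists of ligands, receptors, SMAD proteins, modulators, target genes and E-protein partners, 117 genes in all and the 10 transcripts among them. The called target genes were all higher in K562/IM than in K562. Of 20 tested, 9 were called higher and 0 lower, with a median log2 difference of 0.85 against 0.04 over all genes, of which 13.9% were called higher and 5.29% lower. The list holds 30 genes and was chosen with earlier results of these data known, so its share is a description only. Listed targets left untested were too low in counts, among them CCN2 and SNAI2 with 0 counts in every library. Among K562+L calls, 0 of 20 target genes were called higher and 4 lower, with a median of -0.47 against 0.00 to 2 decimals over all genes, of which 2.38% and 4.01% were called. In the labelled libraries against K562/IM, 1 of 21 was called higher and 8 lower, with the median at 0.00 to 2 decimals, beside 14.7% and 13.8% of all genes called. The ID genes belong to this list and account for 3, 2 and 2 of the calls.

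CDKN1A, the cell cycle inhibitor p21, and BHLHE40, a transcriptional repressor, are targets chosen for mention after their values were seen. CDKN1A rose by 2.20 (SE 0.089, adjusted p = 1.7e-06) from a mean of 12.2 CPM in K562 to 56.2 in K562/IM, and was 7.14 in the labelled libraries. BHLHE40 rose by 1.46 (SE 0.069, adjusted p = 3.4e-06), from 48.5 to 133 CPM, and was 34.3 in the labelled libraries. Both fell against K562/IM, CDKN1A by 2.96 and BHLHE40 by 1.93. In K562+L their differences were positive, 0.82 (adjusted p = 0.00133) and 0.40 (adjusted p = 0.00758), short of the fold threshold. Their interactions were -3.80 (adjusted p = 7.7e-09) and -2.36 (adjusted p = 2.5e-09).

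Several transcripts of the wider pathway were present in K562/IM and at or near 0 elsewhere. BMP6, a BMP ligand, measured 2.1, 2.06 and 1.42 CPM in K562/IM, had 0 counts in every K562 library and every labelled library, and 5 counts in 1 K562+L library. The K562/IM mean of 1.86 CPM was at least 12-fold higher than the K562 floor and at least 11-fold higher than that of the labelled libraries. ACVRL1, the type I receptor ALK1, measured 2.2, 2.46 and 2.54 CPM in K562/IM and had 5 counts in 1 K562 library and 0 in every other library. This was at least 15.5-fold higher than the K562 floor. FST, which encodes the activin-binding protein follistatin, averaged 1.19 CPM in K562/IM, at least 7.7-fold higher than the K562 floor.

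BMP7, a further BMP ligand chosen after its values were seen, measured 10.9, 10.1 and 11.1 CPM in K562/IM against 1.61, 1.14 and 1.21 in K562, a rise by 3.02 (SE 0.17, adjusted p = 6.8e-06). It measured 0.907, 0.672 and 0.51 CPM in the labelled libraries, a fall by 3.92 (SE 0.22, adjusted p = 5.6e-06) against K562/IM. SMAD9, a receptor SMAD of the BMP branch and itself a BMP target, rose by 2.08 (SE 0.26, adjusted p = 3.4e-04) from a mean of 0.712 CPM in K562 to 3.02 in K562/IM. It measured 1.24, 1.47 and 1.1 CPM in the labelled libraries and fell by 1.23 (SE 0.19, adjusted p = 8.1e-04). ACVR1B, the activin receptor ALK4 and also chosen after its values were seen, rose by 1.32 (SE 0.25, adjusted p = 0.00285) to 28.7 CPM in K562/IM and was called lower in the labelled libraries, at 7.04 CPM (adjusted p = 3.6e-06).

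**Figure D4:**
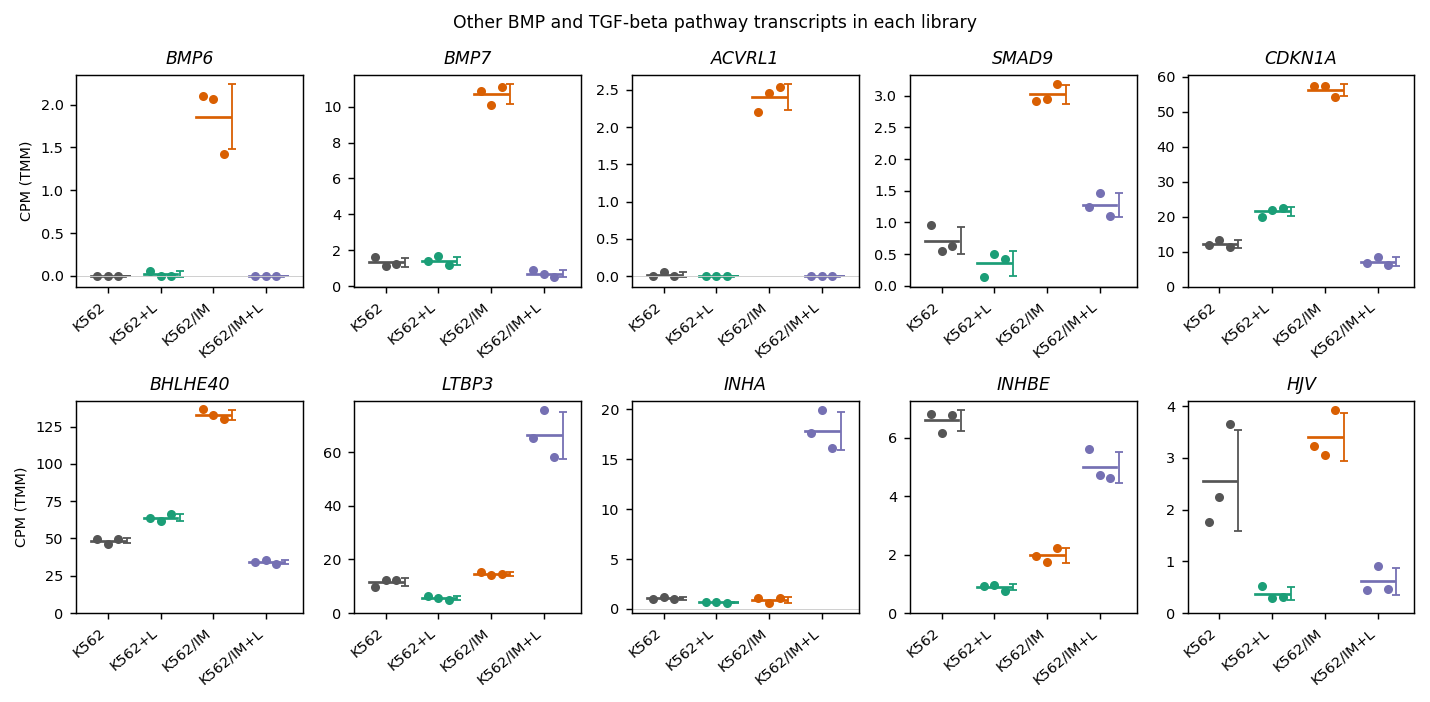
Level of 10 other pathway transcripts in CPM (linear axes, scaled per panel); points are libraries, lines are group means and brackets are 1 SD (n = 3). BMP6, BMP7, ACVRL1, SMAD9, CDKN1A and BHLHE40 peak in K562/IM, whereas LTBP3 (from 58.2 to 75.7) and INHA peak in the K562/IM+L-labelled libraries.

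Other transcripts of the wider pathway were highest in the labelled libraries. INHA, the alpha subunit of inhibin, measured 17.6, 19.9 and 16.1 CPM there and at most 1.22 in any other library. It rose by 4.31 (SE 0.27, adjusted p = 9.6e-06) against K562/IM and by 4.03 (SE 0.16, adjusted p = 8.0e-06) against K562. LTBP3, which encodes a binding protein of latent TGF-beta, measured 65.4, 75.7 and 58.2 CPM there, a rise by 2.20 (SE 0.11, adjusted p = 3.0e-06) over K562/IM and by 2.51 (adjusted p = 2.0e-05) over K562. ACVR1C, the receptor ALK7, rose by 2.38 (SE 0.22, adjusted p = 6.9e-05) over K562/IM to 6.79, 6.55 and 9.68 CPM. NRROS, a protein that tethers latent TGF-beta on myeloid cells, was instead lowest there. Against K562/IM it fell by 1.69 (SE 0.22, adjusted p = 3.5e-04), from a mean of 27.1 to 8.29 CPM.

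LEFTY2 and GREM1, genes of extracellular antagonists, were called in comparisons with K562/IM, where they had 0 counts in every library. LEFTY2 averaged 0.257 CPM in K562 and 0.241 in the labelled libraries, at least 1.7-fold and 1.6-fold higher than the K562/IM floor. GREM1 had 17, 9 and 13 counts in the labelled libraries, around the floor of 12, so no fold is given.

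With lycorine in K562, 1 of the 81 list genes tested was called higher and 7 lower, where all genes also had more lower than higher calls (518 and 308). INHBE, an activin subunit, fell by 2.89 (SE 0.17, adjusted p = 7.0e-05), from 6.81, 6.17 and 6.79 CPM to 0.935, 0.969 and 0.756. In K562/IM it was lower than K562 by a log2 of -1.74 (adjusted p = 7.1e-05), and in the labelled libraries it rose by 1.36 (adjusted p = 2.9e-04) against K562/IM, to a mean of 4.98 CPM. The interaction for INHBE was 4.23 (SE 0.23, adjusted p = 4.6e-08), so the contrast labelled lycorine had opposite directions in the lines.

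HJV, the BMP co-receptor hemojuvelin, fell in both contrasts labelled lycorine. It went from 1.77, 2.25 and 3.65 CPM in K562 to 0.519, 0.288 and 0.316 in K562+L, a fall by 2.77 (SE 0.37, adjusted p = 0.0016). It went from 3.23, 3.05 and 3.92 CPM in K562/IM to 0.454, 0.91 and 0.468 in the labelled libraries, a fall by 2.46 (SE 0.31, adjusted p = 3.2e-04). The interaction was 0.29 (SE 0.5, adjusted p = 0.647), and its sign changed when K562 replicate 3 (-0.06) or labelled replicate 2 (-0.15) was left out.

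LTBP3 fell by 1.06 (SE 0.15, adjusted p = 0.00202) with lycorine in K562, but by only 0.96 without K562+L replicate 3, which ended the call. BAMBI, a decoy receptor and pathway target chosen after its values were seen, fell by 1.06 (SE 0.13, adjusted p = 0.00119), from a mean of 9.53 to 4.57 CPM. AMH, the anti-Mullerian hormone, was the 1 ligand called higher, by 1.89 (SE 0.19, adjusted p = 5.1e-04), from 4.27, 6.08 and 6.13 CPM to 20.2, 24.1 and 16.6. Its difference in the labelled libraries was 0.04 (adjusted p = 0.816), and its interaction was -1.86 (adjusted p = 8.0e-05).

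By list, several shares were near those of all genes, which were 13.9% higher and 5.29% lower in K562/IM against K562 and 14.7% and 13.8% in the labelled libraries against K562/IM. Receptors and co-receptors had 3 of 15 called higher and 0 lower in K562/IM against K562, and 2 higher and 6 lower in the labelled libraries against K562/IM. Ligands had 5 of 19 called higher and 3 lower in the first comparison and 6 higher and 3 lower in the second. Of 7 SMAD genes tested, SMAD9 alone was called in either. SMAD1, on the list but not tested, had 0 counts in every library. Modulators had 4 of 28 called higher and 0 lower, then 2 of 29 higher and 3 lower. With lycorine in K562, 1 of 16 ligands was called higher and 2 lower, 2 of 15 receptors and 1 of 25 modulators were called lower, and 0 of 7 SMAD genes were called by edgeR's quasi-likelihood test or by DESeq2. Of those 7, 3 passed on adjusted p alone and 4 had an unadjusted p below 0.05. Of the 12927 genes tested there, 2.38% were called higher, 4.01% were called lower and 4821 passed on adjusted p alone. At least as many of them had an unadjusted p below 0.05.

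**Figure D5:**
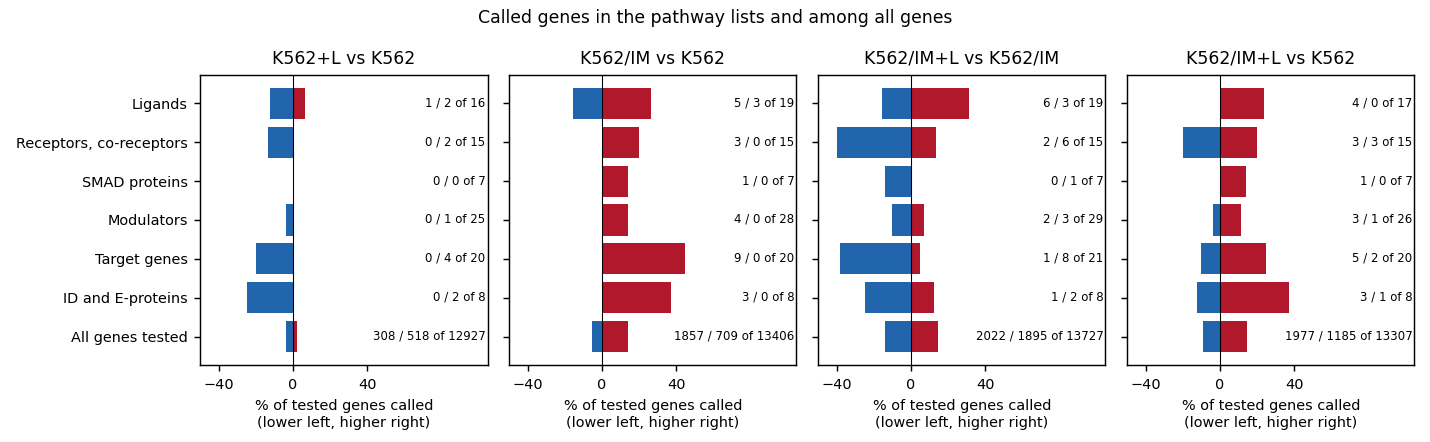
Percent of tested genes called higher (red, right) and lower (blue, left) in each pathway list and among all genes, in 4 comparisons; the text gives the counts as higher / lower of tested. The target list in K562/IM against K562 has 9 higher and 0 lower of 20, and in the labelled libraries against K562/IM 1 higher and 8 lower of 21.

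The partners that ID proteins bind were read beside them. Of 8 genes tested in the list of ID proteins and partners, the 3 ID genes were the only ones called in K562/IM against K562. TCF12, an E-protein gene chosen after its values were seen, measured 131, 125 and 135 CPM in K562/IM against a mean of 86.6 in K562. Its log2 difference of 0.59 (SE 0.14, adjusted p = 0.0084) lay below the fold threshold. The E-protein genes TCF3 (-0.09) and TCF4 (0.41) and the partner gene LYL1 (0.08) did not pass on p there. Against K562/IM, the labelled libraries were lower for TCF12 (-0.77) but higher for TCF3 (0.57), TCF4 (0.75) and LYL1 (0.47). None of these passed the fold threshold. TAL1, an erythroid factor that pairs with E-proteins, measured 57.7, 67.9 and 59.7 CPM in K562/IM and 109, 326 and 369 in the labelled libraries. It rose by 2.14 (SE 0.41, adjusted p = 0.00239), with the first labelled library far below the other two. Against K562 the rise was 1.86 (adjusted p = 0.0171), with overlapping libraries, and the call was lost without K562 replicate 2 or labelled replicate 2.

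The genes whose 4 group means lay closest to each ID transcript, by root mean square distance of centred log2 CPM among 11657 genes, were listed as a description. For ID1 they were EXOC3L2 (0.09), SLC29A4 (0.15) and MYO3B (0.19). For ID2 they were SFXN3 (0.14), NDUFC2-KCTD14 (0.15) and TLCD2 (0.15), and for ID3 SEZ6L2 (0.14), IGFBP4 (0.14) and RBPMS2 (0.15). IGFBP4 averaged 25 CPM in K562, 8.25 in K562+L, 77.3 in K562/IM and 12.3 in the labelled libraries.

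Some markers of other cells, like the ID transcripts, were highest in K562/IM. The summed level of 4 fibroblast markers ranged from 19.8 to 24.9 CPM in K562/IM and from 0.554 to 1.34 elsewhere, with COL1A2 at a mean of 17.1 CPM in K562/IM, COL1A1 at 4.28, DCN at 1.13 and LUM at 0.502. The sum of 3 T-cell markers ranged from 21.4 to 23.1 CPM in K562/IM and from 0.404 to 2.82 elsewhere, nearly all of it CD3D (22), with CD3E and CD2 at or below 0.51 CPM in every library. Of 3 B-cell markers, MS4A1 had 0 counts throughout, and the sum reached 2.6 CPM in K562/IM and 1.21 elsewhere. The 3 epithelial markers summed to between 42.9 and 132 CPM, nearly all EPCAM, and were lowest in K562/IM. The sum of 8 K562 markers was highest in the labelled libraries, from 2.33e+04 to 3.19e+04 CPM, against 4.83e+03 to 7.08e+03 in K562 and 3.53e+03 to 4.11e+03 in K562+L. It was lowest in K562/IM, from 2.38e+03 to 2.61e+03 CPM, where the ID transcripts peaked. Most of that sum was HBG1 and HBG2 in every group. By group mean, HBE1 was the only marker of the 8 that was not lowest in K562/IM. HBE1 averaged 97.6 CPM in K562, 44.4 in K562+L and 544 in K562/IM, and was highest in the labelled libraries. GATA1 changed little, with means of 230 CPM in K562, 206 in K562+L, 196 in K562/IM and 250 in the labelled libraries. The part of all these cell markers in the results was not tested. In bulk RNA, fewer cells with a transcript and less RNA per cell cannot be told apart.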

How the data were processed

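The authors deposited raw counts, whole numbers for every gene symbol and library, and did not pool replicates. Per the labels, libraries were poly(A)-enriched. The submitters' processing notes name FastQC, STAR, StringTie, DESeq2 and hg38, without versions or roles, and settings and annotation are not given in the sources used here. Of 23289 values from 1 to 25, 67.9% were a multiple of 4 or 1 above, against 52% of whole numbers, so 1 fragment may be worth about 4 counts and counting error is then larger than the totals give.

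Libraries were grouped by labelled cell line and treatment. In each pairwise comparison 6 libraries were filtered with filterByExpr (minimum count 10), TMM-normalized and fitted with edgeR 4.0.16's quasi-likelihood test in R 4.3.3 (limma 3.58.1), Benjamini-Hochberg adjusted, after the procedure was tested on simulated data. The interaction used 12 libraries. The standard error is the absolute log2 fold change over the square root of F. The floor of 12 counts is 3 fragments. DESeq2 1.42.0, other scalings, filters, counts divided by 4, a replicate block and leaving out each library were alternatives. Every pair of replicate libraries differed beyond counting noise, and nothing says that they were separate cultures, so p-values measure the spread between these libraries. Same-numbered libraries did not deviate together (r from -0.227 to 0.0806 over 12 pairs).

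The 10 transcripts, the gene lists and the tests were chosen with earlier results of these data known. Named beside the 10 were, per list and comparison, the called gene with the largest rise and the largest fall, the 3 genes nearest in pattern to each ID gene among those with a mean of at least 1 CPM, and ABCB1. A gene that this rule names is not reported here. Positions and exon lengths are from GENCODE 29, which matched 18982 of 19447 symbols. Promoters were shown where at most 30 of their bases lie in annotated exons, and the ID1 window was trimmed to 244 bases. The SMAD6 window, with 8 such bases, was left at 250.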

Additional observations from a re-analysis of the deposited data

Results flagged for a closer look

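The lycorine effect differed between the lines for the transcripts below, by the interaction in edgeR's quasi-likelihood test over 12 libraries at an adjusted p under 0.05. The values are the log2 effect in K562/IM, by the label of its treated libraries, minus that in K562. Among all genes tested, 29.9% differed upward and 31.7% downward, so such a difference was common. Dixon's test of single libraries was not applied to groups of 3. Labelled replicate 3 differed most from the others of its group, with a chi-square per gene of 40.5 and 50.3 against 10.9 between the other two, and without it the genes called against K562/IM rose from 3917 to 4323.

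Of the 10 transcripts, ID1 (0.73), TGFB1 (0.49), ENG (1.36) and SMAD6 (1.40) differed upward, and ID2 (-0.91), ID3 (-1.62), TGFBR1 (-1.48) and SMAD3 (-1.08) downward. The results of ID1 and TGFB1 were lost when single libraries were left out, 8 of 12 for ID1 and 6 of 12 for TGFB1.

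Of the wider pathway, INHA (4.94), INHBE (4.23), LTBP3 (3.24), ACVR1C (2.27), TAL1 (1.67) and BAMBI (1.27) differed upward. BMP7 (-4.03), CDKN1A (-3.80), BHLHE40 (-2.36), ACVR1B (-2.29), AMH (-1.86), NRROS (-1.57) and TCF12 (-0.97) differed downward. Of the ID partners not named above, TCF3 (0.56) and LYL1 (1.20) differed upward, and TCF4 (-0.05) did not pass. TAL1 lost its result when any of 7 single libraries was left out (1.24 to 1.65). ABCB1, which lay below its K562 level in the libraries labelled K562/IM+L, had an interaction of -6.23 (adjusted p = 3.1e-08). What set these differences was not tested.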

How the results depend on the processing

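Over the 4 comparisons and the interaction, the 10 transcripts kept direction and call in 671 alternative fits; in 24 a call was lost, in 16 gained, and in 5 a sign changed. The count of them called in the labelled libraries against K562 was 5 and fell to 3 under upper-quartile scaling, which moved the median of all genes from 0.02 to 0.17, and ranged from 3 to 5 when single libraries were left out. In K562/IM against K562 it was 3 and ranged from 3 to 5, the upper value without K562 replicate 3, where ENG and TGFBR2 joined. The replicate block left 2, 3, 5 and 5 of the 10 called in the 4 comparisons, in the order of the report, and 7 in the interaction, where ID1 was lost (0.72, adjusted p = 0.0542); in 2 of 12 checks a library correlated best with its own number. Without K562 replicate 1, genes called with lycorine in K562 rose from 826 to 1085. Signs changed only in differences that were not called. Leaving out single libraries, the ranges of these in K562+L were -0.20 to 0.03 for TGFBR1, -1.03 to 0.38 for TGFBR2, -0.21 to 0.34 for ACVR1C, -0.00 to 0.52 for ACVR1B and -0.04 to 0.24 for BMP7. In K562/IM against K562 they were -0.19 to 0.03 for TGFB1, -0.17 to 0.08 for SMAD7, -0.41 to 0.03 for INHA, -0.05 to 0.13 for NRROS and -0.51 to 0.18 for TAL1. In the labelled libraries they were -0.04 to 0.17 for AMH against K562/IM and -0.38 to 0.10 for LEFTY2 against K562, which was also 0.03 under upper-quartile scaling. In the interaction they were -0.15 to 0.59 for HJV and -0.64 to 0.07 for SMAD9. The causes were not tested. Depth limits TGFBR2, LEFTY2 and GREM1, which lie near the floor.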

Other observations

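Of the transcripts that separated K562/IM from K562, some were near or below their K562 level in the libraries labelled K562/IM+L and others were near their K562/IM level. The first kind included COL1A2 (means of 0.0164 CPM in K562, 17.1 in K562/IM and 0.0294 in the labelled libraries), CD3D (2.15, 22 and 0.344), BMP6 (0, 1.86 and 0) and ACVRL1 (0.0199, 2.4 and 0). The second kind included LTBP1, a latent TGF-beta binding protein (64, 157 and 177), LTBP4 of the same family (99.5, 253 and 234) and TSC22D1, a TGF-beta target (17.1, 59.6 and 62.4). By group mean, ID2 (2.83, 25.6 and 9.02) and ID1 (12.5, 34.1 and 16.9) lay between, but for ID1 the labelled libraries overlapped those of K562. ID3 (4.43, 16.8 and 2.16) was of the first kind. These values were picked after they were seen and carry no test of the labels.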
